A study of Mus musculus with 27 samples.

Results

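The replication-dependent histone genes were taken as every mouse gene whose symbol begins with Hist1h, Hist2h, Hist3h or Hist4h and that had at least 10 counts summed over the 27 libraries. GENCODE M21 annotates 70 such genes. Of these, 68 were counted among the 48440 genes measured, and 59 reached the minimum. They comprise 6 genes for the linker histone H1, 14 for H2A, 16 for H2B, 10 for H3 and 13 for H4. GENCODE M21 annotates 2 of them as pseudogenes, Hist1h2al (counted here under H2A) and Hist3h2bb-ps (counted under H2B). Of the 59, 51 lie on chromosome 13, 4 on chromosome 3, 3 on chromosome 11 and 1 on chromosome 6. Another 2 genes of the family, Hist1h2bh and Hist1h2bm, were not analysed here.

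The cells were lung fibroblasts in primary culture from C57BL/6 wild-type mice, held at 3% O2, and each of 9 groups has 3 libraries. For 15 or 35 d they received 3 µM KU60019, which blocks the kinase ATM, a sensor of DNA breaks, or the vehicle DMSO. For each of these 4 groups another was harvested after the same treatment and 20 further days without it, called here a removal group. The remaining cells were given X-rays (10 Gy) and collected after 10 d. Libraries keep their own names here: S1_705, S2_715 and S3_716 for DMSO at 15 d, S4_705 to S6_716 for KU60019 at 15 d, S7_705 to S9_716 and S10_705 to S12_716 for their removal groups, S13_705 to S15_716 and S16_705 to S18_716 for DMSO and KU60019 at 35 d, S19_705 to S21_716 and S22_705 to S24_716 for their removal groups, and S25_705 to S27_716 for X-rays. Values are given in that order, and the labels do not say what the last 3 digits mark.

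Replication-dependent histone genes make the core histones H2A, H2B, H3 and H4, which wrap DNA into nucleosomes, and the linker histones H1, which bind between nucleosomes. They are transcribed mainly in S phase under the coactivator NPAT. Their mRNAs are not normally polyadenylated and end in a conserved stem-loop that is bound by the protein SLBP, after cleavage guided by the U7 small nuclear RNA. In cells that leave the cycle, some of these genes also give polyadenylated transcripts that run past the stem-loop. Replacement variants such as H3.3 are encoded elsewhere in the genome by ordinary polyadenylated mRNAs and are not counted among the members.

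A stem-loop after the stop codon was found in the annotated transcripts of 41 members, beginning 21 to 54 bases after it. These sequences are shown because they define the gene class and part the H4 genes from the others. Capitals mark the bases of the 2 stem arms, and the sequences are on the strand of each gene, 5′ to 3′, in GRCm38.
The form found most often (21 members of H1, H2A, H2B and H3, none of H4): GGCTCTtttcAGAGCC
Hist1h1t, Hist1h2bb, Hist1h2bk, Hist1h3c, Hist1h3e and Hist1h3f: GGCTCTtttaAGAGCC
Most genes of H4 (7 members): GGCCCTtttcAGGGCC
Hist1h4i and Hist2h4: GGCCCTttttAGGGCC
The arms of both H4 forms shown read GGCCCT and AGGGCC, and the arms of both other forms shown read GGCTCT and AGAGCC. The remaining 5 members with a stem-loop held 4 further forms. Among them the H4 genes Hist1h4b and Hist1h4j have other arms, GGTCCT and AGGACC. The H4 gene Hist1h4a has the arms GGCCCT and AGGGCC around another loop.

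Where the annotated gene ended relative to the stem-loop differed among the members. The annotation stopped at or near the stem-loop in 20 members, ran at least 100 bases past it in 21 and held none in 18. In the same order, the median level over all libraries was 0.130, 0.408 and 0.286 CPM (counts scaled to library size and its TMM factor), and 3, 9 and 7 members were above 1 CPM. Many of the 18 models, such as those of Hist1h1b, Hist1h2bn and Hist1h4k, end at the stop codon, so no stem-loop after it could be found. Its absence from the annotation does not show that a gene lacks it. The labels name a TruSeq RNA preparation and do not say whether polyadenylated RNA was selected. CPM does not divide by length, and the share of each mRNA that was captured was not tested.

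**Figure D1:**
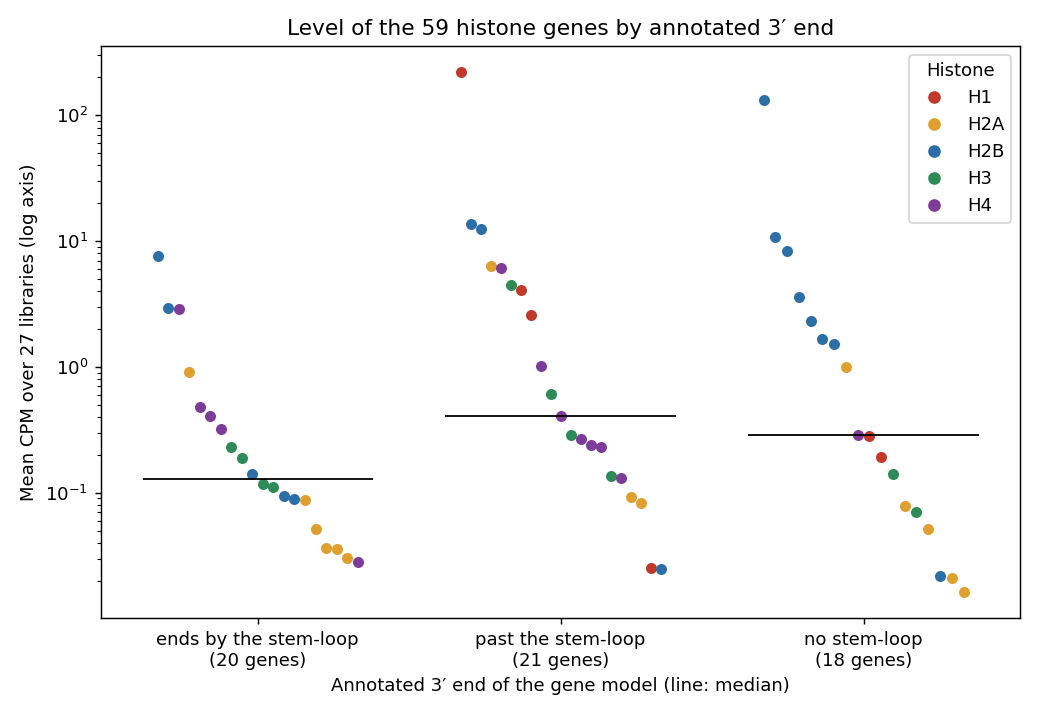
Mean CPM over all 27 libraries (log axis) of each of the 59 members, grouped by where the annotated gene ends relative to the stem-loop, with the median of each group as a line. Medians were 0.130, 0.408 and 0.286 CPM for genes that end by the stem-loop, run past it or have none in the annotation, where many models end at the stop codon.

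Promoters of 52 members, from 250 bases before to 50 after the start, were found in RefSeq on GRCm38.p6 and searched for 4 motifs on both strands. CCAAT was in 43 of the 52 (82.7%), with only 3 of the 12 H4 promoters among them, against 37.4% of 32851 promoters of all genes. TATAAA was in 31 (59.6%, against 13.6% of all promoters). AAACACA, the H1 box, was in 5 of 6 H1 promoters (83.3%, against 7.18%). The octamer ATTTGCAT was in 5 of 13 H2B and 6 of 13 H2A promoters and in none of H1, H3 or H4, against 1.74% of all promoters. A match says only that the letters are there.

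Below are 3 promoters, chosen because Hist1h1c and Hist1h1b both hold the H1 box and CCAAT while their RNA levels differ widely, and because Hist1h2bg holds the octamer. Each holds the 250 bases before the RefSeq start (GRCm38.p6), on the strand of the gene, with the 4 motifs in capitals. Hist1h1c is at chr13:23738557-23738806 on the plus strand, Hist1h1b at chr13:21780626-21780875 on the minus strand and Hist1h2bg at chr13:23571150-23571399 on the plus strand.
Hist1h1c: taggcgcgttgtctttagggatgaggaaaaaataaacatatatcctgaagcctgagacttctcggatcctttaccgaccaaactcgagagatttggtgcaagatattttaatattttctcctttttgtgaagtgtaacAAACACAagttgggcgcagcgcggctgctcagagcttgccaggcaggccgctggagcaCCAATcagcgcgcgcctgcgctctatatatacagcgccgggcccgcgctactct
Hist1h1b: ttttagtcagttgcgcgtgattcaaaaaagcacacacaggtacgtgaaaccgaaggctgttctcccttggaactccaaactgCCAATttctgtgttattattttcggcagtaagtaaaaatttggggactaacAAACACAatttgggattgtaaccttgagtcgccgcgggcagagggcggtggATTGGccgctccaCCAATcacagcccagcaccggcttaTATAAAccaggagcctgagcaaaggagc
Hist1h2bg: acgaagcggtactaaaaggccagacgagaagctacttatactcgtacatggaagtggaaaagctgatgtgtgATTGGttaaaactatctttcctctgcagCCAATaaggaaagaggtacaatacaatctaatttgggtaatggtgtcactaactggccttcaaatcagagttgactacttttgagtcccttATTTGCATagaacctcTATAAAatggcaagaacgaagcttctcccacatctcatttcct
In Hist1h1c the H1 box begins 112 bases and CCAAT 54 bases before the start. In Hist1h1b the H1 box begins 117 bases, the nearest CCAAT 53 bases and TATAAA 28 bases before it. In Hist1h2bg the octamer begins 59 bases and TATAAA 43 bases before it.

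Libraries held between 20659745 (S19_705) and 50859493 counts, with a median of 31265114. The 12 fibroblast markers were present in every library, summing to 12190 to 62914 CPM, while the 11 macrophage markers summed to 2.54 to 18.2 CPM. Endothelial markers summed to 87.5 to 269 CPM and Schwann cell markers to 4.51 to 116 CPM. Epithelial markers summed to 1.41 to 71.6 CPM and mesothelial markers to 3.95 to 85.4 CPM. Ptprc, Epcam and Cdh1 were at most 0.221 CPM in any library and do not stand for their lists. There were 3 libraries that stood apart by the summed level of 18 RNAs that have no poly(A) tail, such as Rpph1. These were S19_705 (449 CPM), S27_716 (195 CPM) and S7_705 (124 CPM), against 3.96 to 67.2 CPM in the others. S19_705 had the most counts from rRNA-type genes (2.91%) and was the highest library of all for 30 of the 59 members. As the histone mRNAs lack the same tail, results that rest on these libraries are also given without them.

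Of the 59 members, 35 passed the filter on low counts and were tested: 4 of 6 for H1, 3 of 14 for H2A, 12 of 16 for H2B, 5 of 10 for H3 and 11 of 13 for H4. A weakly expressed member could pass through the one group where it was high, so counts below describe the 35 and not the family. Near-identical copies limit what single values mean, since over 50% of the 50-base words of 28 members, 14 of them tested, occur in other genes. All 14 H2A members and 3 others overlap exons of another gene. The differences among the 9 groups passed the test for 34 of 35 members (86.5% of 18684 genes passed it), the exception being Hist2h4. In bulk RNA, fewer cells that make a transcript and less of it per cell cannot be told apart.

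The family's RNA was dominated by 2 genes. Hist1h1c, for linker histone H1c (chr13:23738808-23740367, plus strand; annotated 840 bases past its stem-loop), averaged 221 CPM over all libraries, and Hist1h2bc, for an H2B (chr13:23684199-23692908, plus strand, no stem-loop in the annotated transcript), 133 CPM. Together they gave 61.2 to 83.9% of the members' CPM in every library. Next came the H2B genes Hist1h2be (13.7 CPM), Hist1h2bg (12.5 CPM), Hist1h2br (10.8 CPM), Hist1h2ba (8.38 CPM) and Hist1h2bf (7.56 CPM). The highest genes of the other classes were Hist3h2a (6.38 CPM), Hist1h4i (6.12 CPM) and Hist2h3c2 (4.48 CPM).

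Per length, in the TPM values the authors deposited, Hist1h1c (241 TPM) and Hist1h2bc (186 TPM) again led. They were followed by Hist1h2ba (35.5 TPM), Hist1h2bg (34.4 TPM), Hist1h2bf (27.9 TPM) and Hist1h4i (13.02 TPM), all means over the libraries. Hist1h1d fell far back per length, at 0.960 TPM against 4.08 CPM, with an annotated gene of 7425 bases that runs 4884 bases past the stem-loop. Hist1h2ba is known as the H2B of the testis. Its CPM was 0.0469 to 0.0744 of that of Hist1h2bc in all 27 libraries. Of its 50-base words 31.6% occur in Hist1h2bc, 38.2% in Hist1h2bq and 38.2% in Hist1h2br. Which gene its reads came from was not tested.

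By group means, 22 of the 59 members were highest after 15 d of KU60019 and 31 in the removal group after 35 d of DMSO. Among the 35 tested the numbers were 19 and 11, and of the 24 that were not tested, 20 were highest in the DMSO removal group. The heat map shows both groups for the tested members.

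**Figure D2:**
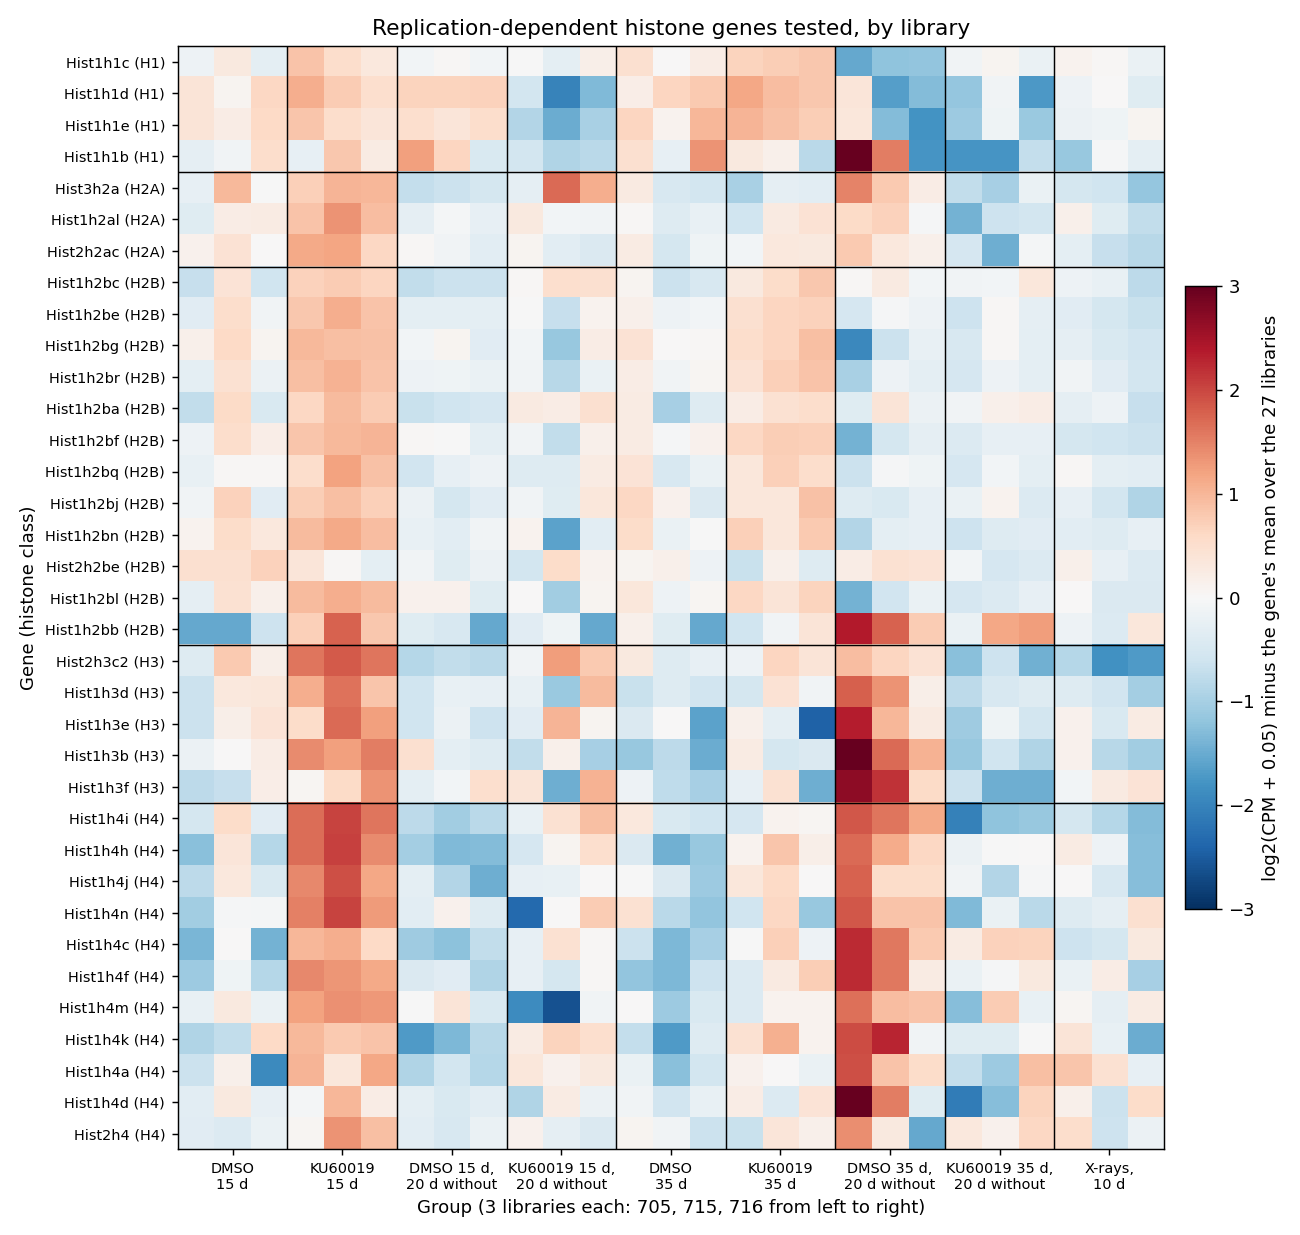
Levels of the 35 tested members (rows) in each of the 27 libraries (columns, by group), as log2(CPM + 0.05) minus the mean of the gene, on a colour scale from low to high. The 3 libraries after 15 d of KU60019 and those of the removal group after 35 d of DMSO hold most of the high values, and S19_705 is the most extreme of the latter.

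After 15 d of KU60019, histone RNA was higher across the classes than after 15 d of DMSO. Median log2 fold changes by class were 1.86 for H4, 1.44 for H3, 0.87 for H2B, 0.84 for H2A and 0.36 for H1. Of the 35 tested members 22 rose and none fell, against 13.2% of all tested genes that rose and 17.1% that fell (30.3% in all). In 28 members all treated libraries lay above all controls (21.8% of all genes), and in 1 below them (22.8%). The median log2 fold change of the members was 0.95, against -0.02 over all genes.

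Hist1h4i (chr13:22040636-22041362, minus strand), the most abundant H4 gene, was at 3.17, 6.74 and 3.60 CPM in DMSO and 14.8, 18.6 and 13.99 CPM in KU60019. The groups did not overlap, and it rose by 1.82 ± 0.33 on the log2 scale (SE, adjusted p = 0.00025). Hist1h4h, another H4 gene, was at 0.916, 2.90 and 1.22 CPM against 7.21, 9.43 and 6.03 CPM and rose by 2.19 ± 0.41 (adjusted p = 0.00034). Every KU60019 library was again above every control, of which S2_715 was the highest for both genes. In all, 8 of 11 H4 genes rose, with the largest fold in Hist1h4f (log2 fold change 2.21 ± 0.47, adjusted p = 0.0012). The H4 sum went from 5.92, 12.8 and 7.10 CPM to 29.3, 37.2 and 26.9 CPM.

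Of the H3 genes 3 of 5 rose. Hist2h3c2 (chr3:96238108-96239127, minus strand) was at 2.69, 6.13 and 3.99 CPM in DMSO and at 10.9, 12.9 and 10.8 CPM in KU60019 (log2 fold change 1.44 ± 0.33, adjusted p = 0.0021). All treated libraries were above the controls. Of its 50-base words 63.5% occur in Hist2h3c1, and reads from those words cannot be assigned to 1 of the pair. Hist2h3c1 is listed at 0 in every library, and it overlaps the gene Gm20634, in which all words of Hist2h3c1 occur.

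Among the H2B genes 8 of 12 rose. Hist1h2bc went from 77.8, 167 and 83.4 CPM to 202, 214 and 196 CPM (log2 fold change 0.90 ± 0.24, adjusted p = 0.0076), and Hist1h2be from 10.1, 18.6 and 11.98 CPM to 22.7, 27.6 and 23.5 CPM (0.86 ± 0.21, adjusted p = 0.0034). Both groups were apart, with control S2_715 nearest to the treated libraries. Hist1h2bg, at 12.6, 17.2 and 12.1 CPM against 22.3, 21.2 and 21.04 CPM, did not pass (0.62 ± 0.29, adjusted p = 0.11) although its groups did not overlap. The lowest member to rise was Hist1h2bb, with 34 counts in the KU60019 libraries against 2 in DMSO, a ratio of 15.6 (95% exact interval 4.0 to 134, counting error only). The one member with a lower level was Hist2h2be, at 2.07, 1.65 and 1.29 CPM against 2.26, 2.26 and 2.61 CPM (log2 fold change -0.51 ± 0.26, adjusted p = 0.14).

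Only 1 of the 4 tested H1 genes passed. Hist1h1c rose from 185, 254 and 168 CPM to 372, 299 and 257 CPM (log2 fold change 0.61 ± 0.17, adjusted p = 0.0088). The lowest treated library stood just above the highest control. Its paralogues Hist1h1d (0.43 ± 0.40, adjusted p = 0.44), Hist1h1e (0.16 ± 0.35, adjusted p = 0.75) and Hist1h1b (0.29 ± 1.07, adjusted p = 0.86) did not pass.

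In the same libraries, of 26 S phase genes 6 rose and none fell, among them Cdt1, which loads the replicative helicase (log2 fold change 1.30 ± 0.20, adjusted p = 4.6e-05). The S phase sum was 302, 312 and 378 CPM in DMSO and 371, 409 and 401 CPM in KU60019. Of 20 mitosis genes none rose and 2 fell, and Mki67 was not called (-0.44 ± 0.23, adjusted p = 0.16). Slbp, the stem-loop binding protein, did not pass either (-0.06 ± 0.18, adjusted p = 0.83).

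Endothelial and macrophage markers also moved: 9 of 12 and 5 of 8 tested fell and 0 and 1 rose. The endothelial sum was 138 to 269 CPM in DMSO and 129 to 184 CPM in KU60019, the macrophage sum 6.86 to 16.1 and 4.82 to 6.27 CPM. Of 12 fibroblast markers 6 fell and 2 rose (sums of 34707 to 51608 against 12218 to 14692 CPM), and 2 of 4 epithelial and 2 of 7 mesothelial markers rose and 0 and 1 fell, with median log2 fold changes of 1.08 and -0.55 (sums of 2.17 to 4.91 and 5.77 to 10.0 against 13.7 to 18 and 17 to 23 CPM). The part of these markers in the histone result was not tested. The RNAs without a poly(A) tail did not part the groups, at 7.88, 27.8 and 4.90 CPM against 12.03, 8.40 and 9.18 CPM.

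Leaving out single libraries changed the count. Without S1_705 it was 11 of 40 tested members, without S3_716 14 of 40, and without S5_715 14 of 40, all upward. In the same order, 19.02, 23.09 and 19.82% of all genes were called in these fits, against 30.3% in the main fit. The genes called in each of the 27 fits that left out 1 library were 10: Hist1h2bb, Hist1h2be, Hist1h2bq, Hist1h2br, Hist1h4c, Hist1h4f, Hist1h4h, Hist1h4i, Hist1h4j and Hist2h3c2. Hist1h1c missed the threshold without S1_705 (log2 fold change 0.55, adjusted p = 0.055), S3_716 (0.49, 0.063) or S4_705 (0.46, 0.071). Hist1h2bc missed it without S1_705 (0.70, 0.064) or S3_716 (0.74, 0.052).

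**Figure D3:**
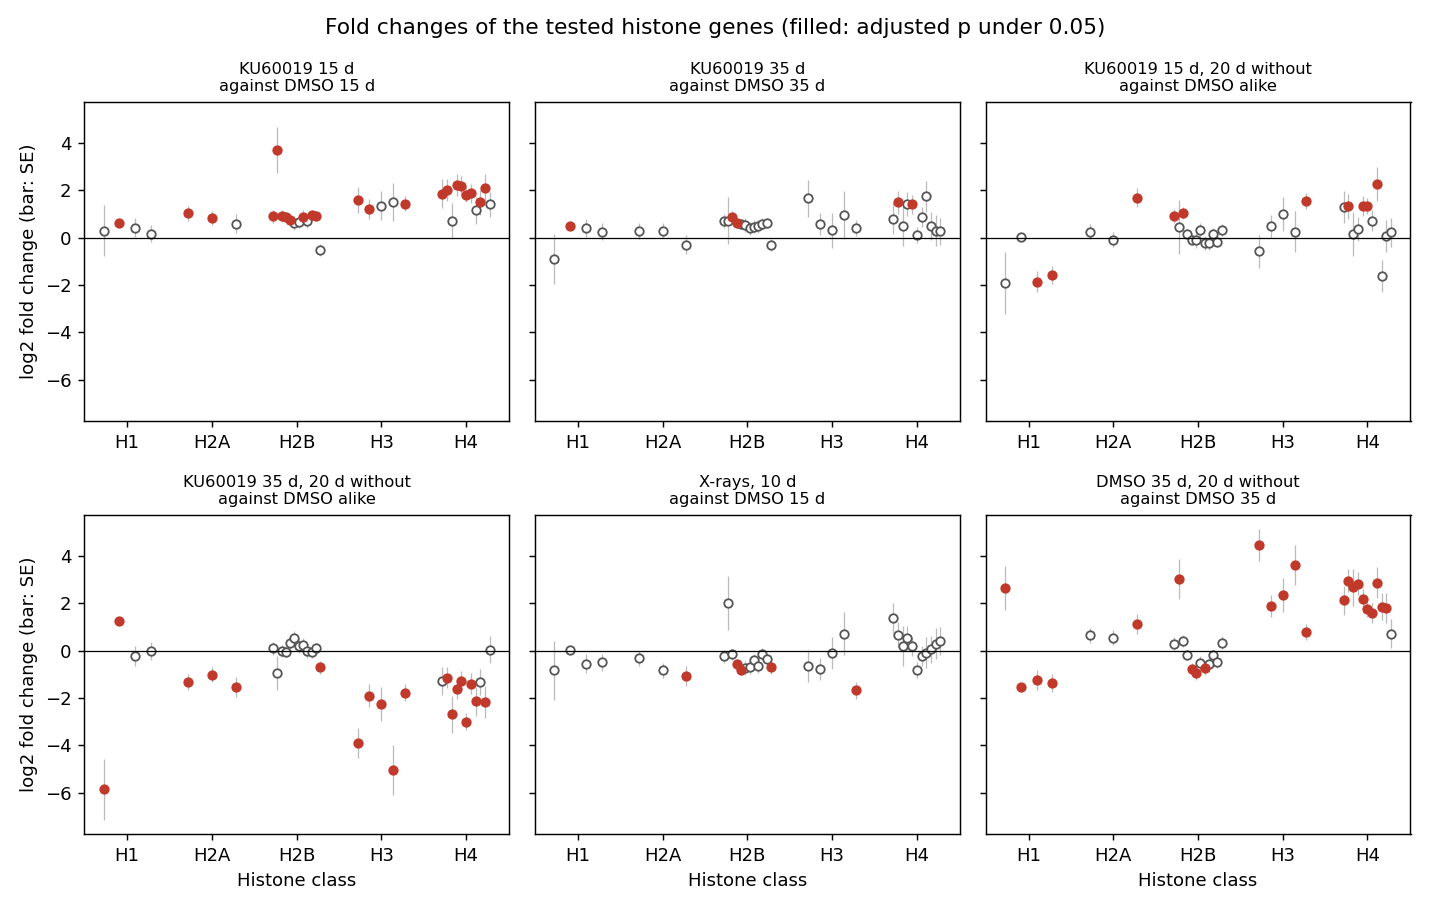
Log2 fold changes of the 35 tested members (points, with SE as bars) by histone class in 6 comparisons, filled where the adjusted p was under 0.05. Of the 11 H4 genes 8 rose after 15 d of KU60019 and 10 in the removal group after 35 d of DMSO, where all 5 H3 genes rose as well.

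After 35 d of KU60019 fewer members passed against 35 d of DMSO. The 5 that rose were Hist1h1c, Hist1h2bc, Hist1h2be, Hist1h4c and Hist1h4h, and none fell (9.7% of all genes rose and 8.4% fell, 18.1% in all). In 15 members all treated libraries were above all controls (20.9% of all genes) and in none below them (23.5%). The median member stood at a log2 fold change of 0.50, against -0.01 over all genes.

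Hist1h1c was at 289, 207 and 241 CPM in DMSO and 330, 343 and 363 CPM in KU60019 (log2 fold change 0.49 ± 0.17, adjusted p = 0.046). Hist1h2bc was at 132, 80.4 and 89.5 CPM against 153, 183 and 220 CPM (0.88 ± 0.24, adjusted p = 0.014). Hist1h4h was at 1.64, 0.785 and 0.991 CPM against 2.41, 4.01 and 2.53 CPM (1.41 ± 0.41, adjusted p = 0.021). In all 3 genes the groups were apart, with S13_705 the nearest control.

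By contrast Hist1h4i, at 5.70, 3.30 and 2.99 CPM in DMSO, was at 3.18, 4.93 and 4.77 CPM in KU60019, overlapping groups with a log2 fold change of 0.11 ± 0.33 (adjusted p = 0.85). Its KU60019 effect at 35 d was smaller than at 15 d, with a difference of -1.71 ± 0.46 (adjusted p = 0.017), the one of 35 members to pass that test (11.7% of all genes, 7.11% upward and 4.58% downward). That call was lost without S1_705 (-1.50, adjusted p = 0.059), S5_715 (-1.57, 0.054), S13_705 (-1.36, 0.068) or S16_705 (-1.53, 0.054). Whether the other members' effects are alike at the 2 times is not shown by a p that misses the threshold.

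The 35 d calls leaned on single libraries: without S14_715 or S15_716 no member was called, and without S17_715 or S18_716 1 and 2 were. Without S13_705, or without S2_715, S19_705 or S21_716, which belong to other groups, 8 or 9 were. The fits with 0 to 2 calls called 10.11 to 11.87% of all genes. Those with 8 or 9 calls called 18.7 to 23.08%, against 18.1% in the main fit. No member was called in every fit that left out 1 library. Among Schwann cell markers 6 of 8 rose in the same comparison, their sum going from 4.51 to 6.25 CPM in DMSO to 15.2 to 116 CPM in KU60019. Of 12 fibroblast markers 2 rose and 5 fell. Rises were also called for 4 of 12 endothelial, 2 of 8 macrophage, 2 of 7 mesothelial and 1 of 4 epithelial markers, and no falls. Of 26 S phase genes 2 rose and 1 fell, and of 20 mitosis genes none rose and 1 fell. The part of these lists in the histone values was not tested.

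**Figure D4:**
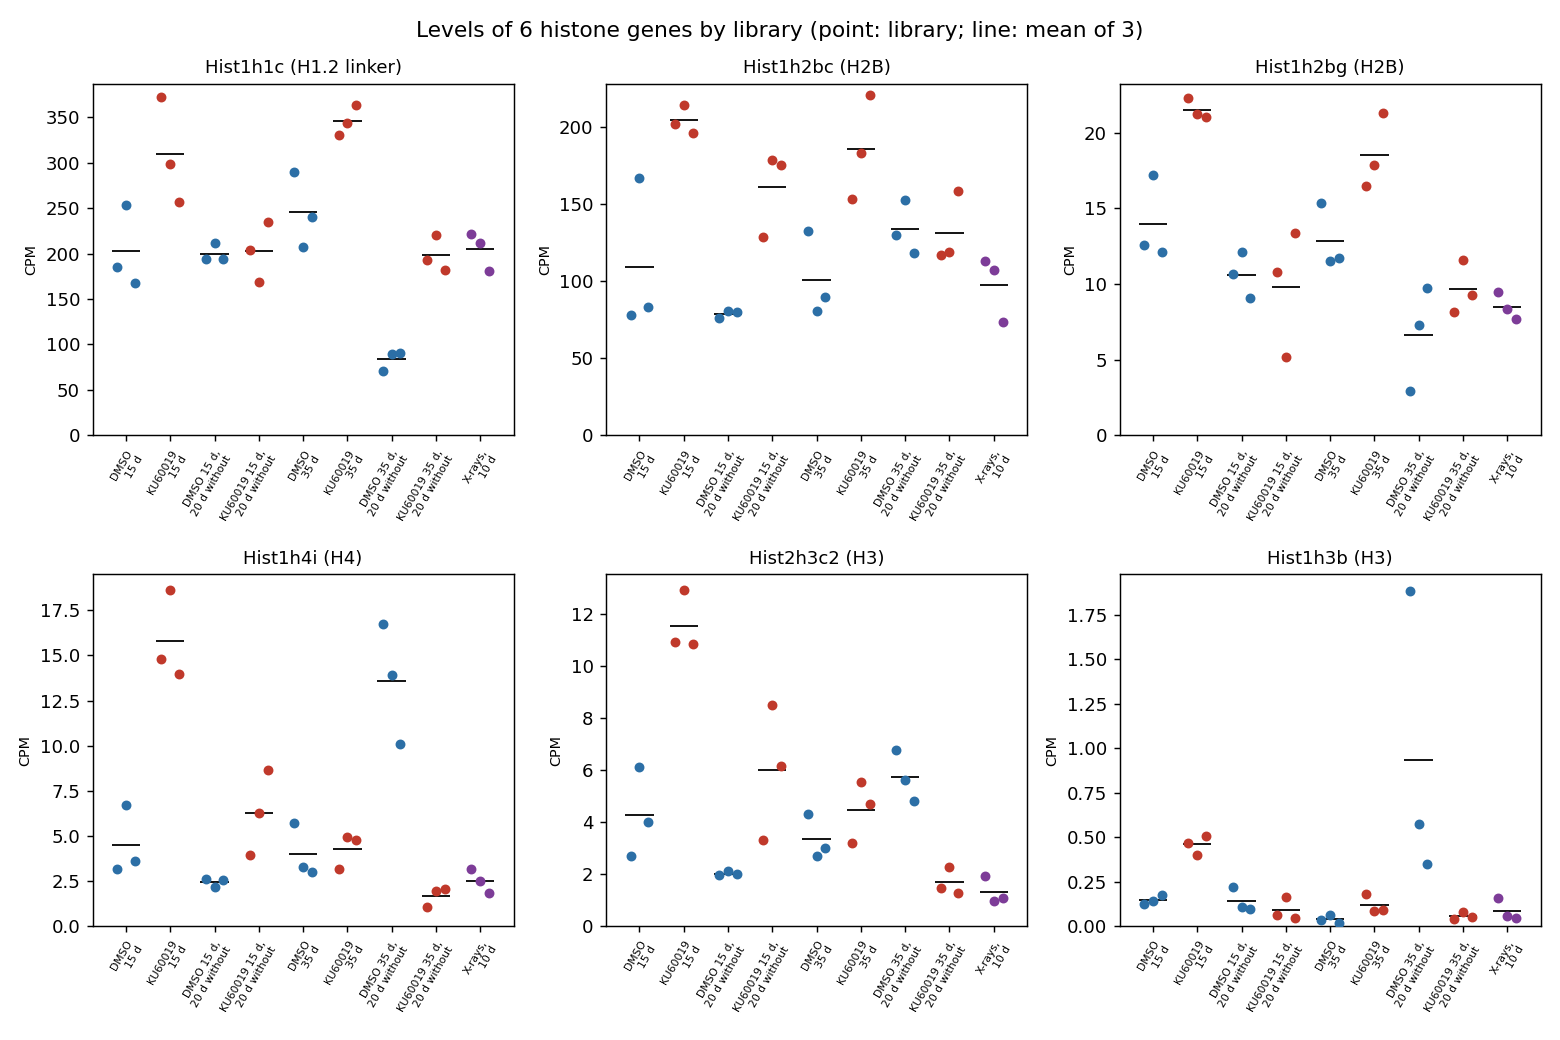
CPM of single members in each library (points; linear axes from 0) with group means as lines, DMSO groups in blue, KU60019 groups in red and X-rays in purple. Hist1h1c is lowest in the removal group after 35 d of DMSO (71.2 to 90.4 CPM), the group in which Hist1h4i reaches 10.1 to 16.8 CPM.

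In cells taken through 15 d of KU60019 and then 20 d without it, 25 of the 35 members did not pass the test against the matching DMSO removal group. Of the others 8 rose, all of them core histone genes, and 2 H1 genes fell (24.7% of all genes rose and 24% fell, 48.7% in all, a share above that of the members). In 10 members all KU60019 libraries were above all controls and in 3 below (26.5 and 30.3% of all genes). Hist1h1d was at 5.51, 5.47 and 5.60 CPM in the DMSO group and 2.35, 0.821 and 1.35 CPM in the KU60019 group (log2 fold change -1.85 ± 0.43, adjusted p = 0.0016). Hist1h1e was at 3.24, 2.92 and 3.27 CPM against 1.21, 0.780 and 1.12 CPM (-1.59 ± 0.38, adjusted p = 0.0019). For both linker histone genes all KU60019 libraries were below all controls. Their effects differed from those of 15 d with the drug by -2.28 ± 0.58 (adjusted p = 0.0075) and -1.76 ± 0.51 (adjusted p = 0.017).

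Hist1h1c, by contrast, was at 194, 212 and 194 CPM and at 204, 169 and 235 CPM, overlapping groups (log2 fold change 0.02 ± 0.17, adjusted p = 0.94). Hist1h1e (chr13:23620629-23622558) overlaps Hist1h2be and the gene Gm11398, so its counts may hold other transcripts. Hist1h1d overlaps no exon of another annotated gene, but its annotation runs 4884 bases past its stem-loop. Which transcripts its counts hold was not tested.

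Among the core histone genes, Hist2h3c2 was at 1.95, 2.12 and 1.99 CPM in the DMSO group and at 3.30, 8.5 and 6.16 CPM in the KU60019 group (log2 fold change 1.56 ± 0.34, adjusted p = 0.0010). Hist1h4i was at 2.61, 2.17 and 2.58 CPM against 3.92, 6.28 and 8.64 CPM (1.35 ± 0.33, adjusted p = 0.0026). Hist3h2a (chr11:58954685-58956830), which encodes an H2A and overlaps exons of Trim17, was at 3.28, 3.46 and 3.76 CPM against 4.47, 17.7 and 11.6 CPM (1.68 ± 0.41, adjusted p = 0.0022). In all 3 genes the groups were apart and S10_705 was the lowest treated library.

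Hist1h2bc was higher as well, at 129, 178 and 175 CPM against 75.8, 80.3 and 79.9 CPM (1.03 ± 0.25, adjusted p = 0.0019). Rises were also called for Hist1h2ba, Hist1h4c, Hist1h4h and Hist1h4k, the last with a log2 fold change of 2.26 ± 0.72 (adjusted p = 0.014). The calls of Hist1h4c, Hist1h4h and Hist1h4k each failed without some library, Hist1h4c without S11_715 (1.07, adjusted p = 0.15), Hist1h4h without S12_716 (1.07, 0.068) and Hist1h4k without S7_705 (1.99, 0.053). That of Hist1h4c also failed without S7_705 (1.27, 0.090), S8_715 (1.18, 0.11) or S12_716 (1.35, 0.063). The other 7 were called in all 27 fits. On TPM the split of calls was 3 up and 9 down of 32 tested. Of 8 tested Schwann cell markers 5 rose (sums of 4.63 to 6.56 against 9.63 to 71.6 CPM), and of 12 fibroblast markers 6 fell and 1 rose. Of 12 endothelial markers 2 rose, and of 7 mesothelial markers 1 fell. Of 26 S phase genes 9 rose and 1 fell, and of 20 mitosis genes 2 rose and 1 fell. The part of these lists was not tested.

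The removal group after 35 d of DMSO stood apart from 35 d of DMSO in most genes, with 64.1% of all tested genes called, 31.5% up and 32.6% down. Of the 35 members 18 rose and 6 fell. All removal libraries were above those at 35 d in 16 members and below in 6 (29.6 and 33.1% of all genes). All 5 H3 genes and 10 of 11 H4 genes rose, while 3 of 4 H1 genes and 3 of 12 H2B genes fell. The members that fell were Hist1h1c, Hist1h1d, Hist1h1e, Hist1h2bf, Hist1h2bg and Hist1h2bl.

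Hist1h1c was at 71.2, 90.1 and 90.4 CPM after removal, below each of the other 24 libraries, and it fell by 1.55 ± 0.17 on the log2 scale from the 289, 207 and 241 CPM at 35 d (adjusted p = 1.8e-07). Hist1h1d, at 4.47, 1.06 and 1.36 CPM, fell from 3.95, 5.40 and 5.97 CPM (log2 fold change -1.22 ± 0.42, adjusted p = 0.016), with S19_705 inside the range of the earlier group. Without S19_705 the Hist1h1d value was -2.08 (adjusted p = 0.00019), and the call was lost without S15_716 (-1.08, 0.056), S20_715 (-0.87, 0.099) or S21_716 (-0.94, 0.081). Hist1h1e, at 2.86, 0.883 and 0.620 CPM, fell from 3.54, 2.42 and 4.60 CPM (-1.36 ± 0.38, adjusted p = 0.0038), or by -2.24 without S19_705 (adjusted p = 8.5e-06). Of the H2B genes, Hist1h2bf was at 2.58, 4.85 and 5.78 CPM against 8.27, 6.82 and 7.68 CPM (-0.76 ± 0.23, adjusted p = 0.0060), with the groups apart. Hist1h2bc, at 130, 152 and 118 CPM against 132, 80.4 and 89.5 CPM, overlapped and was not called (0.41 ± 0.24, adjusted p = 0.15).

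The core histone genes that rose went the other way in the same libraries. Hist1h3b (chr13:23752267-23752886), an H3 gene, was at 1.88, 0.574 and 0.349 CPM after removal and at 0.0373, 0.0628 and 0.0191 CPM at 35 d (log2 fold change 4.46 ± 0.66, adjusted p = 7.4e-06). Hist1h4i was at 16.8, 13.9 and 10.1 CPM against 5.70, 3.30 and 2.99 CPM (1.77 ± 0.33, adjusted p = 9.2e-05). Hist1h4c, an H4 gene whose annotation carries the most common H4 stem-loop, was at 1.68, 1.06 and 0.581 CPM against 0.186, 0.0943 and 0.133 CPM (2.95 ± 0.49, adjusted p = 2.4e-05). For all 3 genes the groups were apart and library S19_705 was the highest.

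S19_705 held much of this signal. The 24 members that were too low to test summed to 13.3, 4.63 and 2.09 CPM in the removal group and to between 0.502 and 3.24 CPM elsewhere, and S19_705 was the highest of all libraries for 18 of the 24. Hist1h1b, the linker histone gene known for its dependence on proliferation, was at 4.26, 0.441 and 0 CPM, against 0.186, 0.0943 and 0.381 CPM at 35 d. Its call (log2 fold change 2.64 ± 0.92, adjusted p = 0.016) rested on S19_705, without which the value was -0.13 (adjusted p = 0.90), and was also lost without S14_715 (2.31, 0.065).

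Without S19_705 the count of calls was 16 of 36 tested in place of 24 of 35, and without the 3 libraries that stood apart 15. Among those that held without S19_705 were Hist1h1c (-1.45, adjusted p = 2.4e-06), Hist1h3b (3.51, 5.1e-05) and Hist1h4i (1.59). The summed RNAs without a poly(A) tail were 449, 67.2 and 10.3 CPM in the 3 libraries, in the same order as the H3 sum (19.1, 10.6 and 6.74 CPM) and the H4 sum (38.2, 26.1 and 17.8 CPM), and the part of that in the histone values was not tested. At 35 d of DMSO the H4 sum was 10.03, 5.75 and 5.59 CPM. With library size alone as the scale, members split into 16 up and 9 down (all genes shifted by a median of -0.29), and on TPM 11 and 11 (-0.67).

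Proliferation genes rose in the same comparison. Of 26 S phase genes 25 rose, their sum reaching 1335, 1495 and 1553 CPM against 196 to 409 CPM in all other libraries. All 20 mitosis genes rose, Mki67 by 4.71 ± 0.27 on the log2 scale. The S phase sum was lowest in S19_705, the library with the highest histone sums for H2A, H3 and H4. Epithelial and mesothelial marker sums were 24.3 to 71.6 and 26.6 to 85.4 CPM, against 1.41 to 1.90 and 4.84 to 6.45 CPM at 35 d of DMSO, Krt19 reaching 67.4 CPM, while Epcam and Cdh1 reached at most 0.133 CPM in any library. Of 12 fibroblast markers 8 fell and 3 rose, with sums of 15228 to 18659 CPM against 42437 to 52288 CPM. The part of these markers was not tested.

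**Figure D5:**
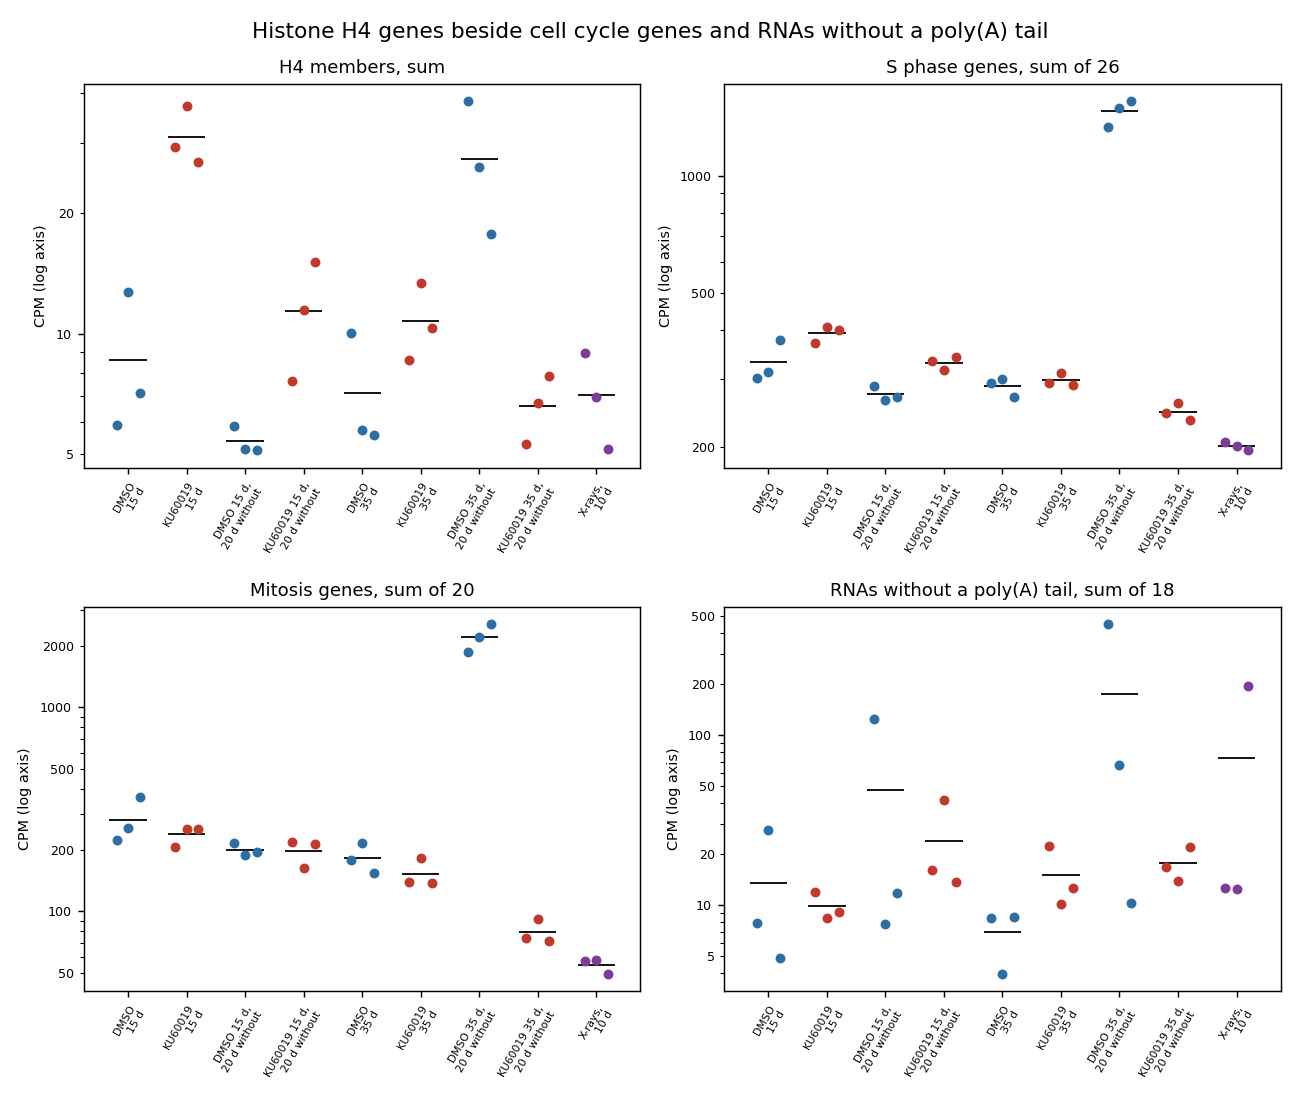
Summed CPM (log axes) in each library (points; lines are group means) of the H4 members, 26 S phase genes, 20 mitosis genes and 18 RNAs without a poly(A) tail. The H4 sum is 26.9 to 37.2 CPM after 15 d of KU60019. In the removal group after 35 d of DMSO it is 38.2 CPM in S19_705. It is 26.1 and 17.8 CPM in S20_715 and S21_716, below all libraries of 15 d of KU60019. The S phase sums of the 2 groups are 371 to 409 and 1335 to 1553 CPM.

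Cells taken through 35 d of KU60019 and then 20 d without it were compared with that same DMSO removal group, so the values above enter again from the other side. Of 35 members 18 fell and 1, Hist1h1c, rose (24.5% of all genes fell and 24.4% rose, 48.9% in all). All 5 H3 genes, all 3 H2A members and 8 of 11 H4 genes fell, against 1 of 12 H2B genes. The H2A members include Hist1h2al, which is annotated as a pseudogene. All KU60019 libraries were above the DMSO group in 1 member and below it in 15 (26.1 and 23.5% of all genes). Hist1h4i was at 1.08, 1.94 and 2.06 CPM in the KU60019 group (log2 fold change -2.99 ± 0.35, adjusted p = 4.2e-07), below all libraries of the DMSO removal group. Hist1h1c was at 192, 220 and 181 CPM (1.24 ± 0.17, adjusted p = 3.9e-06), more than in the DMSO group but within the range of the X-ray libraries.

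Hist1h1b had 2 counts in the 3 KU60019 libraries and 71 in the DMSO group, a ratio of 50.4 (95% exact interval 13.4 to 424, counting error only), with 4.26 CPM in S19_705 alone. Hist1h3f, an H3 gene, had 1 count against 29 (41.2, interval 6.83 to 1682). Hist1h1d (-0.23 ± 0.44, adjusted p = 0.69) and Hist1h1e (-0.02 ± 0.40, adjusted p = 0.98) were not called. The genes called in all 27 fits were 10: Hist1h1b, Hist1h1c, Hist1h2al, Hist1h3b, Hist1h3d, Hist1h3f, Hist1h4i, Hist1h4n, Hist2h3c2 and Hist3h2a.

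Without S19_705 the calls numbered 13 of 36 tested, 11 down and 2 up, with Hist1h1b at -3.07 (adjusted p = 0.044) and Hist1h1e turned from -0.02 to a called rise (0.86, adjusted p = 0.041). Hist1h1d turned from -0.23 to 0.63, which was not called (adjusted p = 0.22). Without the 3 libraries that stood apart there were 10. In the S phase list 25 of 26 genes fell and in the mitosis list 20 of 20. Of 8 tested Schwann cell markers 6 rose, their sum being 13.1 to 21.4 CPM in the DMSO group and 12.3 to 41.6 CPM in the KU60019 group. All 5 tested RNAs without a poly(A) tail fell (median log2 fold change -3.18; sums of 449, 67.2 and 10.3 against 16.9, 14 and 22.1 CPM). Of the fibroblast markers 4 rose and 5 fell, of the endothelial 3 rose and none fell, of the epithelial 1 rose and 2 fell, and of the mesothelial 1 rose and 1 fell. The part of these in the histone values was not tested.

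The change in KU60019 effect from 35 d with the drug to after its removal was tested directly. It was called for 17 of 35 members, 16 downward and 1, Hist1h1c, upward (15.8% of all genes upward and 16.6% downward, 32.4% in all). Without S19_705 it was called for 11 members and 28.0% of all genes. After 15 d the same test called 5 members, all downward: Hist1h1d, Hist1h1e, Hist1h2bl, Hist1h2br and Hist1h4m (25.4% of all genes, 14% upward and 11.4% downward). That count was 9 to 11 without S2_715, S10_705, S12_716, S19_705 or S21_716, 2 of the 10 without S10_705 being upward. Of all genes 16.6 to 32.8% were called in these fits. Each of these tests reuses the control groups of the comparisons above, so changes between DMSO groups enter the differences.

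After X-rays few members differed from 15 d of DMSO, the control used here, which differs in time in culture. Of 35 members 5 fell and none rose (16.8% of all genes fell and 14.1% rose, 30.9% in all). Irradiated libraries were all below the controls in 10 members and all above in 1 (21.8 and 22.1% of all genes). Hist2h3c2 was at 1.93, 0.964 and 1.06 CPM against 2.69, 6.13 and 3.99 CPM (log2 fold change -1.67 ± 0.35, adjusted p = 0.00098). Hist1h2bf was at 4.80, 4.59 and 4.44 CPM against 6.23, 10.1 and 8.08 CPM (-0.82 ± 0.22, adjusted p = 0.0081). In both the irradiated libraries were below all controls.

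The other falls were those of Hist1h2be, Hist2h2be and Hist3h2a, and they passed narrowly (adjusted p = 0.044, 0.043 and 0.049), each losing its call without several single libraries. Without S2_715 Hist1h2be was at -0.27 (adjusted p = 0.30) and Hist3h2a at -0.60 (0.26), and without S3_716 Hist2h2be was at -0.63 (0.13). With 1 library left out, 2 or 3 were called without any of S4_705 to S9_716, S14_715 to S18_716 or S25_705 to S27_716, or without S24_716. Of all genes 21.1 to 29.8% were called in these fits, against 30.9% in the main fit. Hist1h1c, at 222, 212 and 181 CPM, was within the range of the controls (0.02 ± 0.17, adjusted p = 0.95), and of the 11 H4 genes none passed.

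In the same cells 18 of 26 S phase genes and 20 of 20 mitosis genes fell, Mki67 by 4.74 ± 0.29. With the DMSO removal group after 15 d as control, none of the 5 calls was made, and with 35 d DMSO 2 were. S27_716 held 195 CPM of RNAs without a poly(A) tail, against 12.7 and 12.5 CPM in its group mates, and without the 3 such libraries 2 members were called. Endothelial markers fell in 9 of 12 (sums of 142 to 163 against 138 to 269 CPM) and fibroblast markers in 7 of 12, and their part was not tested.

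Among DMSO cultures, the removal group after 35 d gave the 24 calls above, and the comparisons below gave none in the main fit. Between 35 and 15 d none of 35 passed (edgeR, with 1 at an unadjusted p under 0.05 and 0 by DESeq2; 1.56% of all genes passed, 0.455% upward and 1.11% downward). Libraries were all above in 0 members and all below in 2 (7.51 and 7.77% of all genes). Between the removal group after 15 d and 15 d itself none passed either (edgeR, with 5 at an unadjusted p under 0.05 and 2 by DESeq2; 7.02% of all genes passed, 3.78% upward and 3.24% downward). Libraries were all above in 1 member and all below in 6 (14.9 and 13.6%). Leaving out S1_705, S23_715 or S25_705 gave 1 call, and S10_705 or S11_715 gave 2. Of all genes 5.46 to 8.49% were called in these fits. The 2 that DESeq2 called, Hist2h2be and Hist2h3c2, had edgeR values of -0.79 ± 0.26 (adjusted p = 0.074) and -1.07 ± 0.34 (adjusted p = 0.058).

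Genes that work with histones were read from 3 further lists. Of all tested genes 13.2% rose and 17.1% fell after 15 d of KU60019, and 31.5% rose and 32.6% fell in the removal group after 35 d of DMSO. Of 19 genes for histone mRNA processing and transcription, 3 rose and 3 fell after 15 d of KU60019, while 11 rose and 4 fell in the DMSO group after 35 d and removal. Slbp rose there by 0.57 ± 0.18 on the log2 scale (adjusted p = 0.0085) and fell in the KU60019 removal group beside it (-1.13 ± 0.18, adjusted p = 2.8e-05) and after X-rays (-0.56 ± 0.18, adjusted p = 0.022). Eri1, an exonuclease that trims the stem-loop end, rose by 1.14 ± 0.10 and fell by 1.30 ± 0.10 in the same 2 removal comparisons. Npat passed in 1 of these comparisons, the removal group after 15 d of KU60019 (-0.67 ± 0.19, adjusted p = 0.0068).

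Of 21 histone chaperones and assembly factors 2 rose and 2 fell after 15 d of KU60019 (13.2 and 17.1% of all genes). In the removal group after 35 d of DMSO 14 rose and 3 fell (31.5 and 32.6% of all genes). Nasp, a chaperone of H1 and H3-H4, was there at 2.41 ± 0.14, Asf1b, which carries H3-H4, at 3.52 ± 0.27, and Chaf1b, a subunit of chromatin assembly factor 1, at 4.19 ± 0.32. Replacement variants split in the same comparison, 7 of 11 rising and 2 falling. H2afx, the H2A variant phosphorylated by ATM, rose by 2.69 ± 0.18, and Cenpa, the centromeric H3, by 3.54 ± 0.32. After 15 d of KU60019 3 of 11 variants rose, including H2afz (0.75 ± 0.20) and H2afx (0.62 ± 0.17), and 4 fell, including H2afy2, which encodes a macroH2A (-1.002 ± 0.12).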

How the data were processed

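Total RNA went into TruSeq libraries, per the labels. The authors deposited raw counts, for which the submitters' processing notes name featureCounts and mm10. Aligner, annotation release, strand setting and treatment of reads with several matches were not given in the sources used here. Overlapping and near-identical genes are therefore uncertain. TPM values deposited by the authors served for levels per length. Members and gene lists were chosen with earlier results of these data known. Gene positions come from GENCODE M21 (GRCm38), promoters from RefSeq (GRCm38.p6).

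The test was the robust quasi-likelihood F-test of edgeR 4.0.16 (R 4.3.3) on TMM-scaled counts. Genes passed filterByExpr at minimum count 10, and 1 model held all 9 groups, 27 libraries and 18684 genes. Adjusted p-values are edgeR's after Benjamini-Hochberg over all 18684 genes, called under 0.05. The SE is the log2 fold change over the square root of F. Levels are CPM. Named were the 12 members with the highest mean CPM, the 3 highest of each class, up to 5 called members with the largest rise or fall of each comparison, Slbp, Npat and Mki67, and up to 3 genes of lowest p of each list and comparison. The code was tested on simulated data.

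Alternatives were no filter, library size alone, RLE size factors, a replicate block, only the compared groups, DESeq2 1.42.0, limma 3.58.1 on log2(TPM + 1), other X-ray controls and each library left out. The fit without 3 libraries was chosen after seeing the data. Libraries with equal numbers moved together around their group means for KU60019 at 15 d (r of 0.39, 0.22 and 0.38), which met the rule for pairing, and not in every pair of the others. As the labels do not say what separates replicates, p-values measure the spread between these samples, which may be technical. Intervals cover counting error only. No pair of replicates was as alike as sampling noise alone allows (chi-square per gene at least 6.66).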

Additional observations from a re-analysis of the deposited data

Results flagged for a closer look

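The effect of KU60019, as a log2 fold change against the DMSO group of equal schedule, differed between schedules for several members by a direct test of the difference in edgeR (adjusted p under 0.05). From 15 d with the drug to after its removal, the difference was -2.28 for Hist1h1d and -1.76 for Hist1h1e, both linker histone genes, -1.10 for Hist1h2bl and -1.11 for Hist1h2br, both for H2B, and -3.11 for Hist1h4m. Hist1h4m shares 89.8% of its 50-base words with other genes and Hist1h2br 88.7%. At 35 d against 15 d with the drug, the difference was -1.71 for Hist1h4i.

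The differences from 35 d with the drug to after its removal also take in the change between the matching DMSO groups (64.1% of all genes called). Hist1h1c was lower after removal in both, at 192, 220 and 181 against 330, 343 and 363 CPM in KU60019. In DMSO it was at 71.2, 90.1 and 90.4 against 289, 207 and 241 CPM. It stood alone with a positive difference (0.75). The linker histone gene Hist1h1b had -4.94. The H2A members Hist1h2al, annotated as a pseudogene, and Hist2h2ac had -1.58 and -1.31 and the H2B gene Hist1h2bc -0.90. The H3 genes Hist1h3b, Hist1h3d, Hist1h3f and Hist2h3c2 had -5.55, -2.47, -6.02 and -2.19. Among the H4 genes the values were -2.62 for Hist1h4c, -3.18 for Hist1h4d, -3.02 for Hist1h4f, -2.67 for Hist1h4h, -3.10 for Hist1h4i, -2.27 for Hist1h4j, -3.87 for Hist1h4k and -2.48 for Hist1h4n. Of these 17, 11 were called in every fit that left out 1 library: Hist1h2al, Hist1h3b, Hist1h3d, Hist1h3f, Hist1h4c, Hist1h4f, Hist1h4h, Hist1h4i, Hist1h4j, Hist1h4k and Hist2h3c2. Of the first 5, all but Hist1h2bl were.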

How the results depend on the processing

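The member counts given here come beside 22 calls for KU60019 at 15 d, which no alternative other than leaving out a library moved by over 1.5 times. For KU60019 at 35 d (5 calls), library size alone gave 3, no filter 2, the replicate block 3, TPM 1, DESeq2 8 and leaving out the 3 libraries that stood apart 8. For X-rays (5), no filter gave 2, only the compared groups 3, TPM 9, DESeq2 8, the 3 libraries left out 2, the DMSO removal group after 15 d as control 0 and 35 d DMSO 2. After removal at 35 d, KU60019 against DMSO (19) gave 7 with only the compared groups and 10 without the 3 libraries, and with library size alone 1 rose and 14 fell, on TPM 4 and 13. The DMSO removal group against 35 d DMSO (24) gave 10 with only the compared groups and 15 without the 3 libraries, and the removal group against 15 d DMSO (0) 2 with library size alone, 1 on TPM and 2 with DESeq2. For differences between KU60019 effects, 35 against 15 d (1) gave 2 on TPM, removal against 15 d (5) gave 18 on TPM, and removal against 35 d (17) gave 11 with only the compared groups, 9 on TPM and 11 without the 3 libraries. With 1 library left out, counts ranged over 11 to 25 (KU60019 15 d), 0 to 9 (35 d), 8 to 12 (removal after 15 d), 13 to 26 (removal after 35 d), 2 to 7 (X-rays), 0 to 0 (DMSO 35 against 15 d), 0 to 2 (DMSO removal against 15 d), 16 to 31 (DMSO removal against 35 d), 0 to 1, 4 to 11 and 11 to 25 (the differences in the order above) and 32 to 40 (any difference). The filter was run anew in each such fit, which changed the number of members tested, to 36 without S19_705 and 41 without S2_715, for example. These counts are therefore not all out of 35. Among values that were called, direction turned for Hist2h3c2 in the DMSO removal group against 35 d on TPM (-0.042), for Hist1h1b there without S19_705 (-0.13, the lowest of its values with 1 library left out, the highest being 3.39) or the 3 libraries (-0.15) and for Hist2h2be after X-rays with the DMSO removal group as control (0.078). Where direction turned or calls moved, the cause was not tested. With the replicate block the pairing changed the 15 d count of 22 by none and the other counts by less than 1.5 times, except the 35 d count above. Of 106 called values of named genes, 105 kept direction and call under RLE size factors and under DESeq2. Of 2862 such values with 1 library left out, 2608 kept both, 253 lost the call and 1 turned. Depth limited the 24 members with too few counts to test.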
